A study of Mus musculus with 6 samples.

Results

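The AMPA and kainate receptor subunits are the 9 genes Gria1, Gria2, Gria3 and Gria4 (AMPA) and Grik1, Grik2, Grik3, Grik4 and Grik5 (kainate), taken by symbol from the 36291 gene rows of the count table. Each of the 9 had 1 row and passed the filter on low counts, which left 13835 genes to test. The series asked what the transcription factor Zeb2, named Sip1 in its title, does in the migration of cortical interneurons. Poly-A RNA was sequenced from eGFP+ cells sorted from the telencephalon of Swiss strain embryos at E14.5, 3 libraries labelled WT and 3 labelled KO. The knockout is Sip1|Nkx2-1, and the sorted cells of both genotypes are described as targeted by Nkx2-1-iCre, a Cre driver whose promoter is active in the ventral forebrain. The WT cells therefore carry the driver and the fluorescent label too. Each library title has a number, K77, K79 or K80, with 1 WT and 1 KO library per number. What the number stands for is not given in the labels, and neither is the Zeb2 exon removed or whether the libraries came from separate embryos. The p-values thus measure the spread between these libraries, which may be partly technical.

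AMPA and kainate receptors are cation channels opened by glutamate, each built from a ring of subunits around a shared pore. Gria1 to Gria4 encode GluA1 to GluA4, which assemble with each other in varying mixtures and carry most fast excitatory transmission. Grik1, Grik2 and Grik3 encode GluK1, GluK2 and GluK3, which can form kainate channels by themselves, while Grik4 and Grik5 encode the high-affinity subunits GluK4 and GluK5, which need a partner from the first set. Subunit mixture matters for ion flow: GluA2 messenger RNA is edited at a glutamine codon in the pore loop so that arginine is made, and receptors holding edited GluA2 pass little calcium. Interneurons of the medial ganglionic eminence, the main source of cells under the Nkx2-1 driver, are known to carry AMPA receptors during migration, and glutamate is among the cues they can sense.

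The pore-loop codon and its flanks are shown because the codon is the one by which subunits differ in calcium flow, and because the comparisons turn on how much of each subunit's transcript is in the mixture. Sequences are 51 bases of spliced coding sequence from the GRCm38 reference, 5′ to 3′ on the gene's strand, with 24 bases on either side of the codon. The capitals mark the codon for the residue known as the Q/R site, as the genome has it before any editing.
Gria1: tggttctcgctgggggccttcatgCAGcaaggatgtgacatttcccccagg
Gria2: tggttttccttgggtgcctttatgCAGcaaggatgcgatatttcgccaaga
Gria3: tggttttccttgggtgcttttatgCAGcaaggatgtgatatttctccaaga
Gria4: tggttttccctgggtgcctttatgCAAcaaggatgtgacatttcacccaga
Grik1: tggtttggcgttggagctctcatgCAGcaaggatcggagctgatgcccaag
Grik2: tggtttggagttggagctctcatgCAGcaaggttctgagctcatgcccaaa
Grik3: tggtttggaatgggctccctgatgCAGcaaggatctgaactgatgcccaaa

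The place was found by searching the translated sequence for the peptide MQQG, so a glutamine codon there was given by the search. That codon is CAA in Gria4 and CAG in the other 6. Gria2 and Gria3 had 3 mismatches over the 51 bases, Gria1 and Gria4 had 7, and Gria1 and Gria2 had 10, while Grik1 and Grik2 had 5. Gria2 and Grik2, of different families, had 19. The windows of Grik4 and Grik5 are not printed. Against Grik1, Grik2 and Grik3 in turn, Grik4 had 20, 19 and 23 mismatches, and Grik5 had 15, 17 and 20. In each of the 7 genes the window crosses a splice junction, between exons 11 and 12 of Gria1, Gria2 and Gria3, exons 12 and 13 of Gria4, Grik1 and Grik3, and exons 13 and 14 of Grik2. Codon positions in GRCm38 are chr11:57243094-57243096 on the plus strand for Gria1, chr3:80706911-80706913 on the minus strand for Gria2 and chr4:125691207-125691209 on the plus strand for Grik3. Editing itself cannot be read from gene counts, and no base calls were analysed here.

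The likeness between family members bears on counting, since reads were 36 bases long. Of the 36-base words in each gene's annotated exons, the share also found in another of the 9 genes ran from 0% for Grik1 to 0.623% for Gria4. Gria1, the gene with the largest difference between genotypes among the 9, shared 0.0829% of its words. The reference exons of Gria2, Gria3, Gria4 and Grik4 each overlap a small predicted gene on the same strand, over at most 0.99% of their length, and no exon overlap with an antisense gene was found for any of the 9. Gria3 is on the X chromosome, and the other 8 are on autosomes.

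Depth ran from 8323531 to 11069437 gene counts per library. Zeb2, the targeted gene, fell from 662 ± 133 to 308 ± 35.6 CPM (gene counts scaled to the TMM-adjusted library size, mean ± SD, n = 3 per genotype), and the log2 fold change was -1.11 with an SE of 0.138 (edgeR adjusted p = 0.00116). Markers of eminence-derived interneurons were abundant in both genotypes, with a summed level over 12 genes of 6267 to 7495 CPM in WT and 6896 to 7913 CPM in KO, and 3 of them were called higher and 3 lower (4 and 3 with the block). By contrast, 8 of 10 markers of migrating cortical interneurons were called lower in KO and none higher, their summed level being 1454 to 2284 CPM in WT and 924 to 971 CPM in KO. Oligodendrocyte precursor markers were lower for 5 of 6 (6 with the block), with sums of 126 to 148 CPM in WT and 50.9 to 59.3 CPM in KO. Neither the 8 markers of cortical glutamatergic neurons (737 to 974 CPM in WT, 677 to 847 CPM in KO) nor the 10 of radial glia and dividing progenitors (1901 to 2422 against 1651 to 2037 CPM) included a gene called by edgeR, although 1 and 4 of them had an unadjusted p under 0.05 and 3 of the progenitor markers were called with the block. Most of the glutamatergic sum came from 1 gene, Bcl11b, named after its values were seen (mean 541 CPM in WT and 529 CPM in KO). Of 8 markers of striatal projection neurons, 2 were higher and 0 lower (79.7 to 112 CPM in WT, 105 to 143 CPM in KO). Beside these marker counts, edgeR called 3.64% of all genes tested higher and 2.62% lower. Blood vessel markers summed to 22.3 to 40.0 CPM, those of erythroid cells to at most 23.1 CPM with Hba-a1 at 0 in all 6 and 1 gene called lower with the block but 0 without, and those of microglia to at most 4.36 CPM. In bulk RNA, fewer cells of a type and less RNA per cell cannot be told apart, and the part of the cell mixture in the receptor results was not tested. The library labelled WT K79 stands apart. It held 26109 Xist counts against 13 to 28 in the others, and 6 counts from Y-linked genes against 2651 to 3745. By these counts its cells were female and those of the other libraries male. The K79 pair thus differs in sex as well as genotype, and values without WT K79 are given where it bears on a result.

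KO libraries had less transcript of 4 subunits, Gria1, Gria4, Grik1 and Grik3, and more of Grik2. Gria1 stood out in size, at 3.97-fold lower in KO, followed by Grik1 at 2.81-fold and Gria4 at 1.98-fold lower. Gria2, the subunit that limits calcium flow, did not pass the test, and its interval spans from -0.07 to 0.42 on the log2 scale. The count of 5 called of 9 compares with 6.27% called among all 13835 genes (2.62% lower and 3.64% higher, edgeR, Benjamini-Hochberg adjusted p under 0.05). For 6 of 9 subunits the WT and KO ranges did not overlap, against 23.2% of all genes tested. With the K number as a block, 3 subunits were called higher (Grik2, Gria3 and Grik4) and the same 4 lower, against 10.6% of all genes called in that fit (4.45% lower and 6.13% higher). The 9 genes were chosen with earlier results of these data known. The shares over all genes are therefore given for scale and are no test of an excess.

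**Figure D1:**
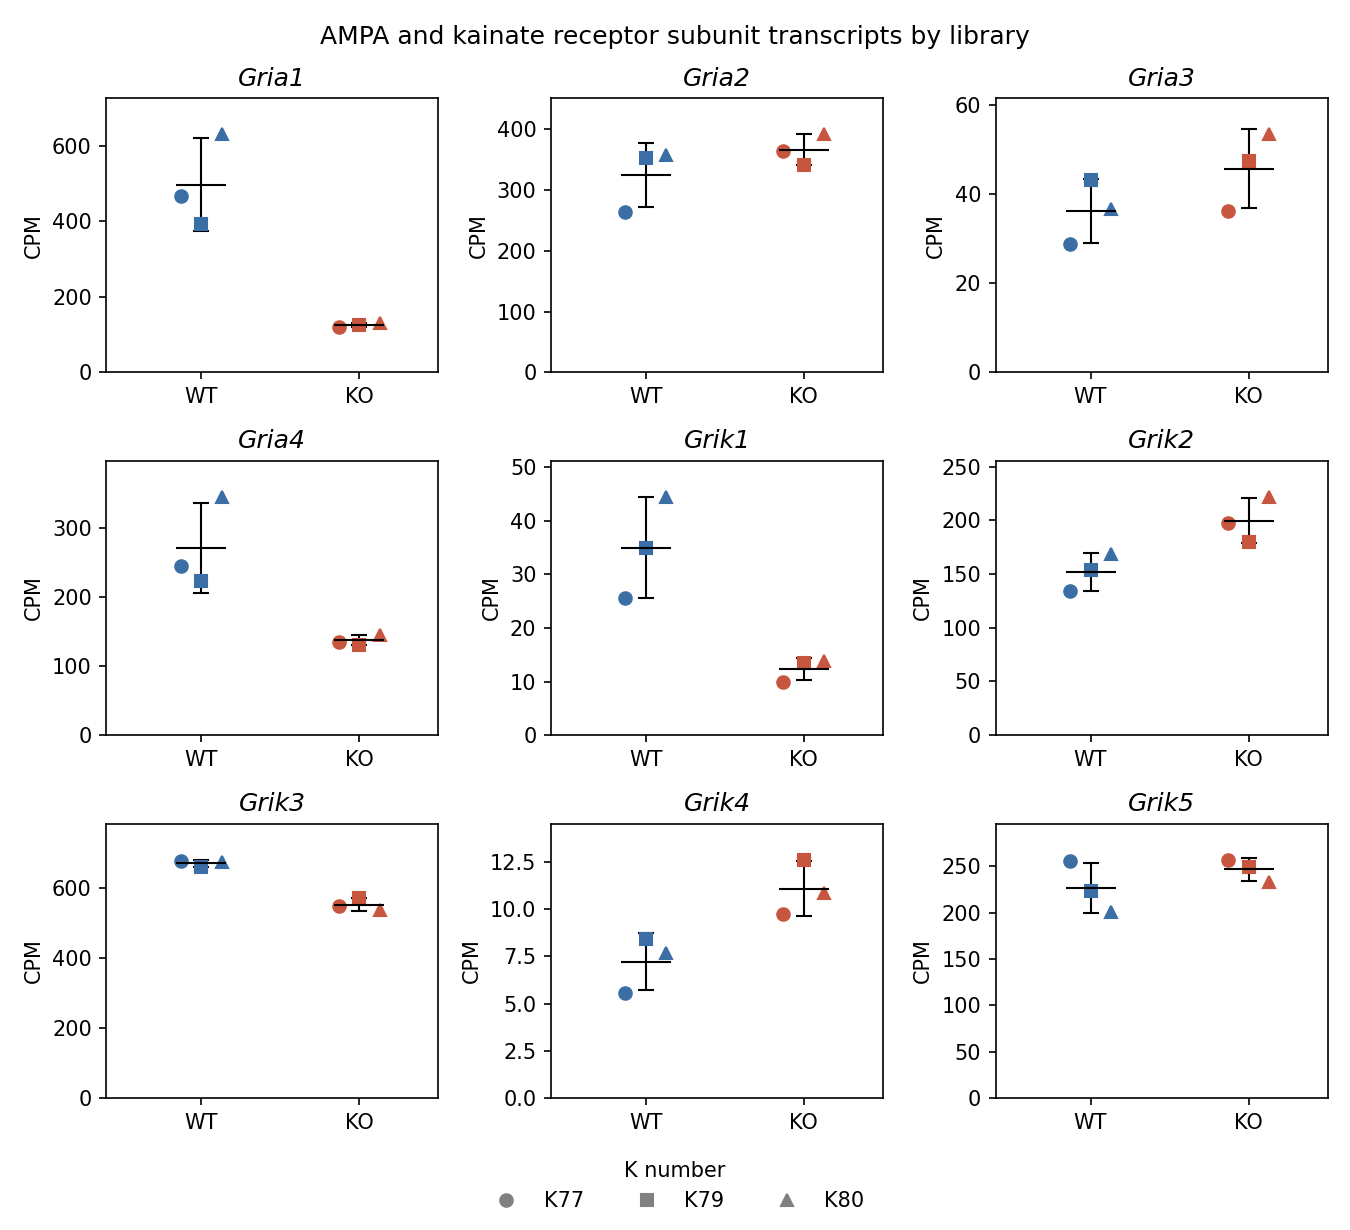
CPM of each of the 9 subunits, 1 panel each with a linear axis from 0, 1 point per library (the shape gives the K number), horizontal lines at the mean of 3 libraries and bars of 1 SD. The KO points of Gria1 sit at 119 to 129 CPM, below the WT points at 392 to 631 CPM, whereas the points of Gria2 and Grik5 overlap.

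Among the AMPA subunits, Gria1 (GRCm38 chr11:57011387-57330244, plus strand) encodes the subunit best known for its regulated delivery to the cell surface. Its level was 467, 392 and 631 CPM in WT K77, K79 and K80, and 119, 126 and 129 CPM in the KO libraries in the same order. Every KO value was under every WT value, and the WT libraries were spread much more widely than the KO libraries. The mean went from 497 ± 122 to 125 ± 5.13 CPM (SD, n = 3 each), or -1.99 on the log2 scale, with an SE of 0.147 and a 95% interval of -2.32 to -1.66 (edgeR adjusted p = 8.69e-05). The fall was called in each of 6 fits that left out 1 library, where the log2 fold change ran from -2.14 without WT K79 to -1.78 without WT K80, the library with the highest Gria1 level.

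Gria4 (chr9:4417896-4796234, minus strand) encodes a subunit that is prominent in early brain development and in fast-spiking interneurons. WT K77, K79 and K80 held 245, 223 and 345 CPM, and the KO libraries 136, 131 and 145 CPM. As with Gria1, the genotypes did not overlap, WT K80 was the highest library and WT K79 the lowest of the WT libraries. The log2 fold change was -0.98 with an SE of 0.139 (edgeR adjusted p = 0.00245), and it was called in all 6 fits that left out a library.

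Gria2 (chr3:80681450-80802835, minus strand) gave 264, 352 and 358 CPM in WT and 364, 342 and 392 CPM in KO. The groups overlapped, since KO K79 lay below both WT K79 and WT K80. The means were 325 ± 52.7 and 366 ± 25.4 CPM, a log2 difference of 0.17 with an SE of 0.109 (edgeR adjusted p = 0.465), so a rise of up to 0.42 or a fall of up to 0.07 on the log2 scale lies within the 95% interval. Gria3 (chrX:41400854-41678601, plus strand), which encodes the close relative of GluA2 that is usually found in the same receptors, was the scarcest AMPA transcript per kb of exon. Its WT values were 28.9, 43.3 and 36.6 CPM and its KO values 36.2, 47.5 and 53.6 CPM. Although the groups overlapped, the KO library was higher than the WT library of the same K number for all 3 numbers. Without the block the log2 fold change was 0.34 with an SE of 0.164 (edgeR adjusted p = 0.317), and with it the adjusted p was 0.0461. The value without the single Xist-rich library, WT K79, was 0.48 (edgeR adjusted p = 0.135, no block). It was 0.20 without WT K77 (edgeR adjusted p = 0.632) and 0.21 without KO K80 (0.695).

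Among the kainate subunits that can form channels alone, Grik1 (chr16:87895900-88290265, minus strand), whose product GluK1 is common in interneurons, was the scarcest per kb of exon. Its counts were 235, 364 and 469 in the WT libraries, in the order K77, K79 and K80, and 83, 136 and 152 in the KO libraries. On the CPM scale these are 25.6, 34.9 and 44.5 in WT and 9.98, 13.4 and 13.8 in KO. The order K77, K79, K80 from low to high was the same in both genotypes, and the groups did not overlap. The log2 fold change was -1.49 (SE 0.200, 95% interval -1.94 to -1.05, edgeR adjusted p = 0.00175), called in all 6 fits that left out a library.

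Grik3 (chr4:125490700-125714173, plus strand) encodes GluK3, a subunit with low sensitivity to glutamate, and had the highest level per kb of the kainate subunits in both genotypes. WT libraries held 678, 659 and 675 CPM and KO libraries 550, 572 and 535 CPM. The change was small but the libraries of a genotype lay close together, within 671 ± 10.0 CPM in WT and 552 ± 18.5 CPM in KO. The log2 fold change was -0.28 with an SE of 0.0539 (edgeR adjusted p = 0.0126). It missed the threshold without KO K77 (edgeR adjusted p = 0.0502) and without KO K80 (0.0928).

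Grik2 (chr10:49094833-49788766, minus strand) encodes GluK2, a main kainate subunit of the forebrain, and was the single subunit called higher without the block. Its values were 134, 153 and 169 CPM in WT and 198, 180 and 222 CPM in KO. The lowest KO library, K79, was just above the highest WT library, K80. The log2 fold change was 0.39 with an SE of 0.0963 (edgeR adjusted p = 0.0396), or 1.31-fold. This call was lost without WT K77 (edgeR adjusted p = 0.129), WT K79 (0.0704), KO K77 (0.0794) or KO K80 (0.182).

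The high-affinity partners differed from each other in level. Grik5 (chr7:25009849-25072346, minus strand) had 256, 223 and 201 CPM in WT and 257, 249 and 233 CPM in KO, overlapping ranges whose log2 difference was 0.12 with an SE of 0.0853 (95% interval -0.07 to 0.31, edgeR adjusted p = 0.520). Grik4 (chr9:42518135-42944493, minus strand) had the fewest counts of these subunits, with 51, 88 and 81 counts in WT and 81, 128 and 120 counts in KO. Its CPM was 5.56, 8.45 and 7.69 in WT and 9.74, 12.6 and 10.9 in KO, with no overlap. The log2 fold change of 0.61 (SE 0.184) did not pass without the block (edgeR adjusted p = 0.0882) and passed with it (0.0258).

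In the authors' deposited table the same 4 subunits were below its adjusted p of 0.05 on the lower side and Grik2 on the higher side, where 5.54% of its 21687 genes with an adjusted p were called. The log2 fold changes in the authors' deposited table were -1.99 for Gria1, -0.98 for Gria4, -1.50 for Grik1, -0.28 for Grik3 and 0.39 for Grik2. For Grik4 and Gria3 the authors' deposited table gave adjusted p-values of 0.0584 and 0.0651.

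To set subunits against each other, CPM was divided by the gene's annotated exonic length (CPM per kb, union of GENCODE exons in GRCm38, a later build than the mm9 of the counts). In WT, Gria1 (82.2 ± 20.2 CPM per kb) and Grik3 (74.7 ± 1.12) came first with overlapping libraries, then Grik5 (43.9 ± 5.31) and Gria4 (42.9 ± 10.3), which overlapped too. Gria2 followed at 20.9 ± 3.39, Grik2 at 11.5 ± 1.32, Grik1 at 5.21 ± 1.41 and Gria3 at 3.68 ± 0.730 CPM per kb, the last pair overlapping, and Grik4 was lowest at 1.21 ± 0.251. Gria1 thus shared the first place in WT.

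In KO the order differed. Grik3 was alone at the top with 61.6 ± 2.06 CPM per kb, and Grik5 was next with 47.7 ± 2.36. Then came Gria2 (23.5 ± 1.64), Gria4 (21.7 ± 1.16) and Gria1 (20.7 ± 0.850 CPM per kb), with Gria4 overlapping both of its neighbours. Grik2 at 15.1 ± 1.60 and Gria3 at 4.64 ± 0.895 stood apart from their neighbours, and Grik4 (1.86 ± 0.244) and Grik1 (1.84 ± 0.312) overlapped at the bottom. Gria1 thus sat level with Gria4 here, and Grik1 with Grik4. Lengths are those of all annotated exons, so a gene with a long unused exon is placed too low. For Gria2 and Grik2 the exonic length is 15548 and 13246 bases, against a longest coding length of 2649 and 2724 bases.

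**Figure D2:**
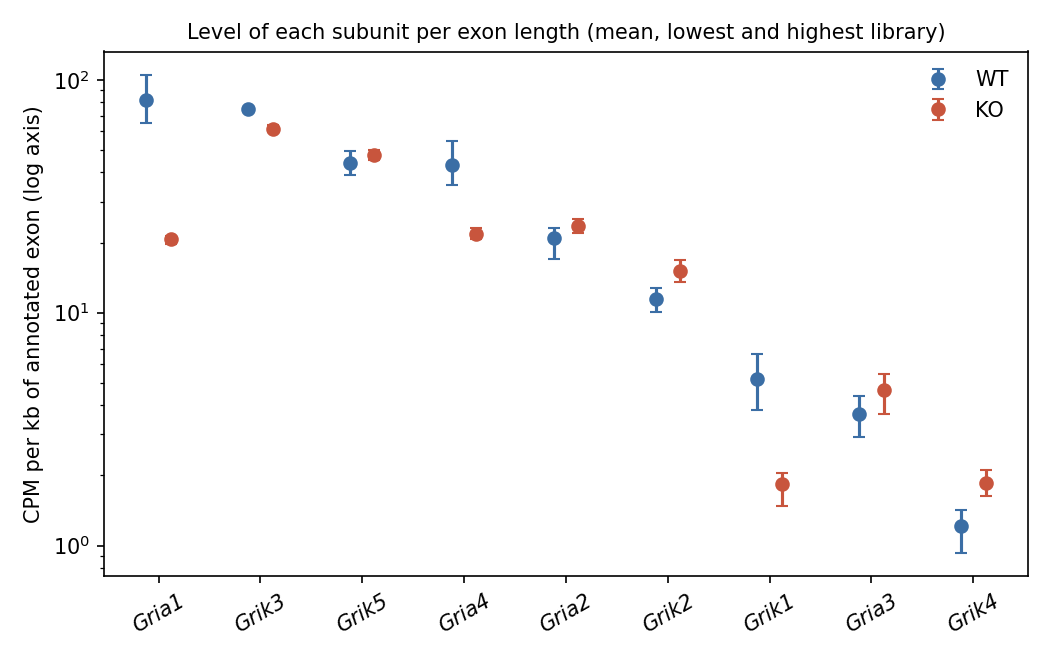
Level of each subunit in CPM per kb of exonic length on a log axis, points being the mean of 3 libraries and bars reaching from the lowest to the highest library of a genotype. Gria1 lies at 64.9 to 104 CPM per kb in WT and at 19.7 to 21.4 CPM per kb in KO, close to Gria2 and Gria4.

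How the subunits divide their family's transcripts was taken as each gene's percentage of the summed family CPM within a library, a measure that does not depend on library scaling. Gria1 made up 46.5, 38.8 and 46.0% of AMPA CPM in WT K77, K79 and K80, and 18.2, 19.6 and 17.9% in the KO libraries. Gria2 was the mirror of this, at 26.3, 34.8 and 26.1% in WT and 55.6, 52.9 and 54.5% in KO. Gria1 therefore took the largest share of AMPA reads in all 3 WT libraries and Gria2 in all 3 KO libraries, and WT K79 was the WT library nearest to the KO values for both.

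The mean share of Gria1 was 43.8 ± 4.30% in WT and 18.6 ± 0.864% in KO, a difference of -25.2 percentage points, and that of Gria2 29.1 ± 5.00% and 54.3 ± 1.37%, a difference of 25.2 points (n = 3 libraries each, exact permutation p = 0.1 for both, two-sided). With 3 libraries against 3, an exact permutation test cannot go below 0.1, so no share or ratio could pass 0.05. That test ignores the K number. Within K numbers, an exact sign-flip test over 3 pairs cannot go below 0.25, the value that the shares of Gria1 and Gria2 had. Of the 14 shares and ratios, 12 were at 0.1 in the unpaired permutation test. These 14 are not separate results, since the shares of a family add up to the whole and the ratios reuse the same counts. A fall of Gria1 alone raises the shares of the other AMPA subunits. Gria2 itself did not pass the test on its level, so the summed AMPA level belongs beside its share. That sum was 1004, 1010 and 1371 CPM in WT and 655, 646 and 720 CPM in KO, a difference of -40.3% between the means. Gria3 made up 3.28 ± 0.878% in WT and 6.77 ± 1.08% in KO (exact permutation p = 0.1). Gria4 made up 23.9 ± 1.63% and 20.3 ± 0.288% of AMPA CPM, but 28.6 ± 0.845% and 30.8 ± 0.592% of AMPA CPM per kb, so the direction of its share depends on whether length is counted. Per kb the shares of Gria1 were 54.7 ± 3.19% in WT and 29.3 ± 1.09% in KO, and those of Gria2 14.2 ± 3.10% and 33.3 ± 1.12%.

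Among kainate subunits Grik3 took most reads. It made up 61.7, 61.1 and 61.5% of kainate CPM in WT and 53.7, 55.7 and 52.7% in KO. Grik2 made up 12.2, 14.2 and 15.4% in WT and 19.3, 17.5 and 21.9% in KO. Neither pair of ranges overlapped. The mean differences were -7.41 points for Grik3 and 5.63 points for Grik2 (exact permutation p = 0.1 each). Grik1 held 3.21 ± 0.863% in WT and 1.21 ± 0.208% in KO, and Grik4 0.663 ± 0.142% and 1.08 ± 0.140% (exact permutation p = 0.1 each). For Grik5 the shares of 18.3 to 23.3% in WT and 23.0 to 25.1% in KO overlapped (exact permutation p = 0.2). Summed kainate CPM was 1092 ± 10.6 in WT and 1022 ± 6.10 in KO, a difference of -6.36%.

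**Figure D3:**
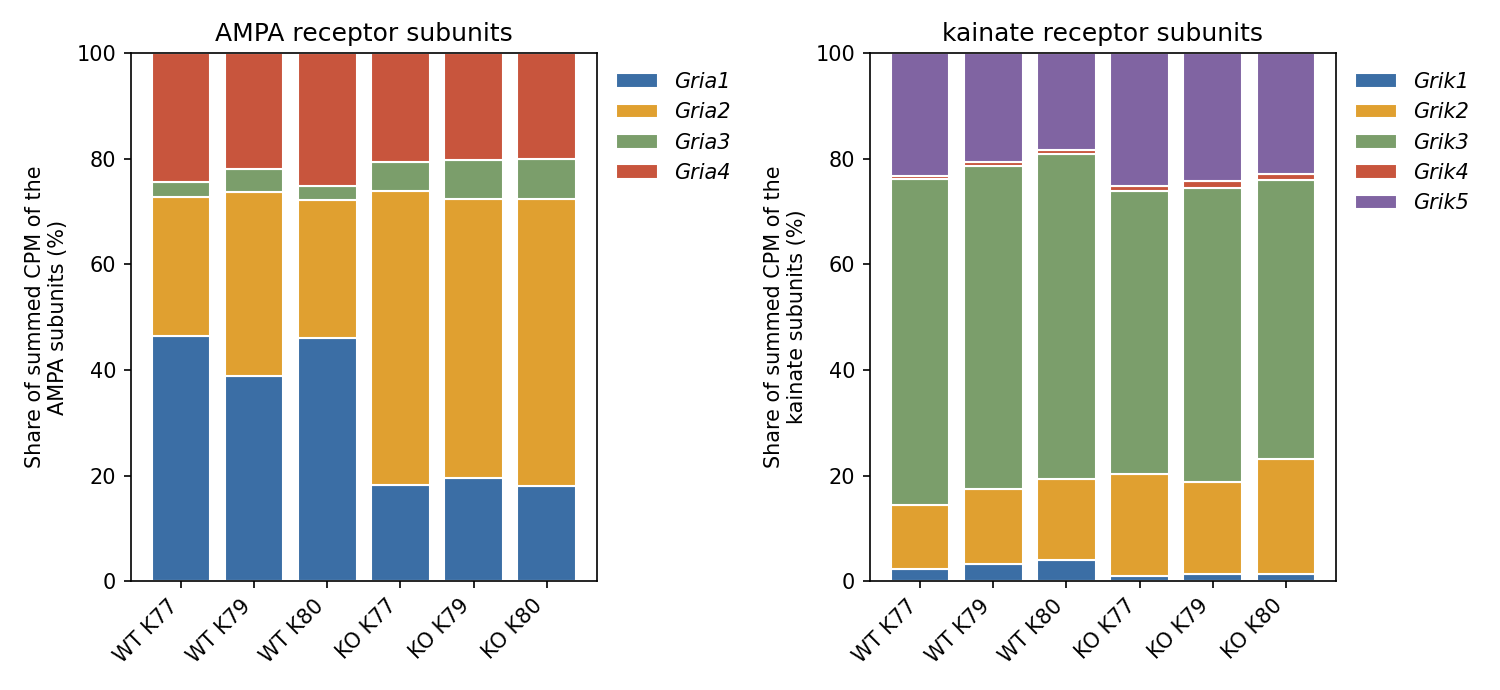
Stacked bars of the percentage of summed AMPA CPM (left) and kainate CPM (right) held by each subunit, 1 bar per library. The Gria1 segment spans 38.8 to 46.5% in WT and 17.9 to 19.6% in KO, and the Grik3 segment is the largest of the kainate bars in all 6 libraries.

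Ratios of counts between 2 genes in the same library give the same contrast with no scaling at all. For each Gria2 count there were 1.77, 1.11 and 1.76 Gria1 counts in WT K77, K79 and K80, and 0.327, 0.370 and 0.329 in KO. Gria1 thus gave more reads than Gria2 in every WT library and fewer in every KO library. The log2 ratio averaged 0.60 ± 0.384 in WT and -1.55 ± 0.0991 in KO, a difference of -2.15 (exact permutation p = 0.1), or -2.37 without WT K79. Gria4 to Gria2 was 0.928, 0.632 and 0.964 in WT and 0.372, 0.383 and 0.370 in KO, with a log2 difference of -1.14 (exact permutation p = 0.1). The KO libraries lay very close together in this ratio, and WT K79 was again the WT library nearest to them. Gria3 to Gria2 overlapped, at 0.102 to 0.123 in WT and 0.0993 to 0.139 in KO (log2 difference 0.15, exact permutation p = 0.4). These 2 genes, whose pore windows are the most alike of those printed above, had overlapping ratios, which does not show that their proportion was equal.

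For the kainate subunits, Grik1 to Grik2 was 0.192, 0.228 and 0.264 in WT and 0.0505, 0.0747 and 0.0621 in KO, a log2 difference of -1.87 (exact permutation p = 0.1). Grik3 to Grik2 was 5.07, 4.30 and 4.001 in WT and 2.78, 3.18 and 2.41 in KO, a log2 difference of -0.68 (exact permutation p = 0.1). For both ratios the 3 KO libraries lay below the 3 WT libraries.

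**Figure D4:**
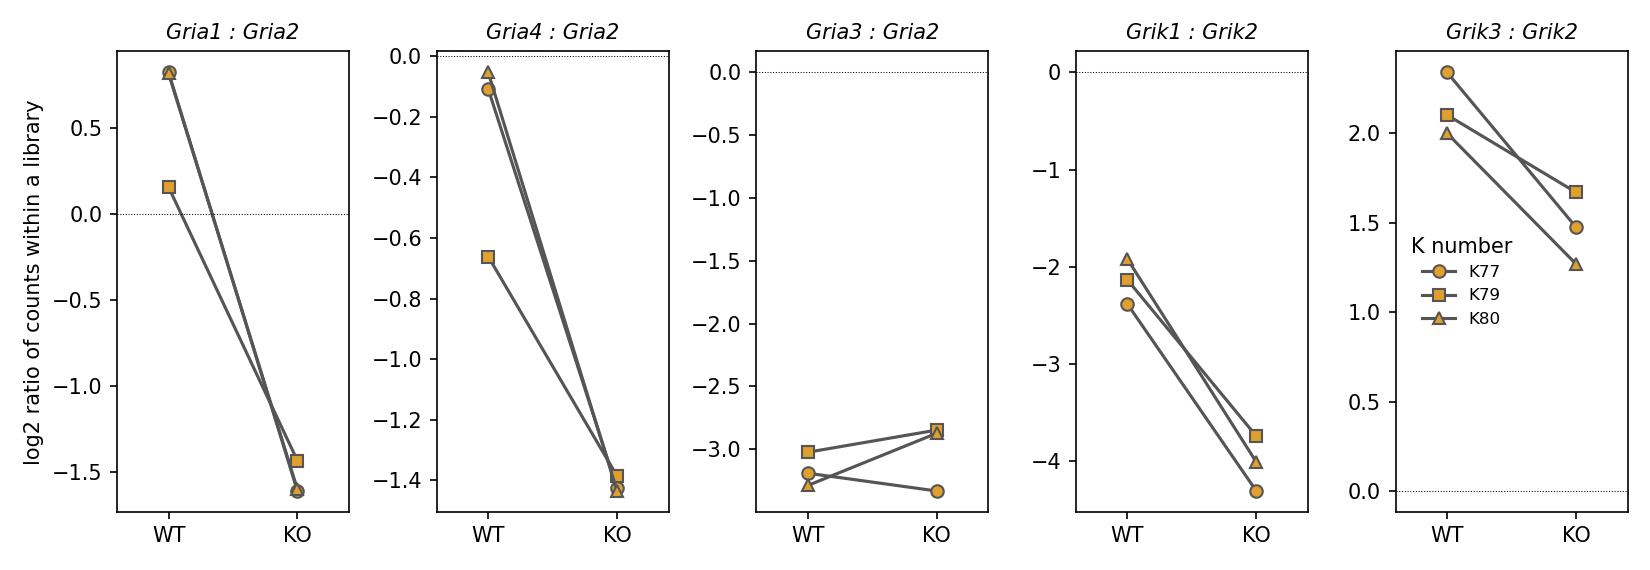
Within-library log2 ratios of counts for 5 pairs of subunits, 1 point per library, with lines joining the WT and KO library of the same K number and a dotted line at 0, where both genes have equal counts. The Gria1 to Gria2 ratio lies above 0 in all 3 WT libraries and below 0 in all 3 KO libraries, and the Gria3 to Gria2 points overlap.

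Receptors reach the surface with auxiliary subunits, and 19 of 20 genes listed for that role were matched and tested. KO was higher for 2 of them, lower for 3 and 14 did not pass, against 3.64% higher and 2.62% lower among all genes tested. Their median log2 fold change was -0.07 against -0.01 over all genes. Neto1, an auxiliary subunit of kainate receptors, fell from 88.6, 88.8 and 136 CPM in WT to 46.7, 54.6 and 48.0 CPM in KO (-1.07 on the log2 scale with an SE of 0.159, edgeR adjusted p = 0.00312). Its groups did not overlap, and as for Gria1 and Gria4 the highest library was WT K80. Tmem90b, the symbol in the files for Syndig1, whose product associates with AMPA receptors, fell by 0.86 on the log2 scale (edgeR adjusted p = 0.00984, called in 5 of 6 fits that left out a library). The third lower gene was the cornichon Cnih3, a member named after its values were seen, at -0.71 (edgeR adjusted p = 0.0300, called in 1 of 6 fits that left out a library). Shisa9, also called CKAMP44, rose from 3.48 ± 0.315 to 7.17 ± 0.618 CPM (log2 fold change 1.04, edgeR adjusted p = 0.00639), on 32 to 85 counts per library. Shisa7, another auxiliary subunit of that family, rose by 0.30 (edgeR adjusted p = 0.0117, called in 4 of 6 such fits). With the block, 5 genes of this list were lower, against 4.45% of all genes tested. The added ones were the transmembrane regulatory protein Cacng2, known as stargazin, and 6430704M03Rik, the files' symbol for the assembly factor Frrs1l.

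**Figure D5:**
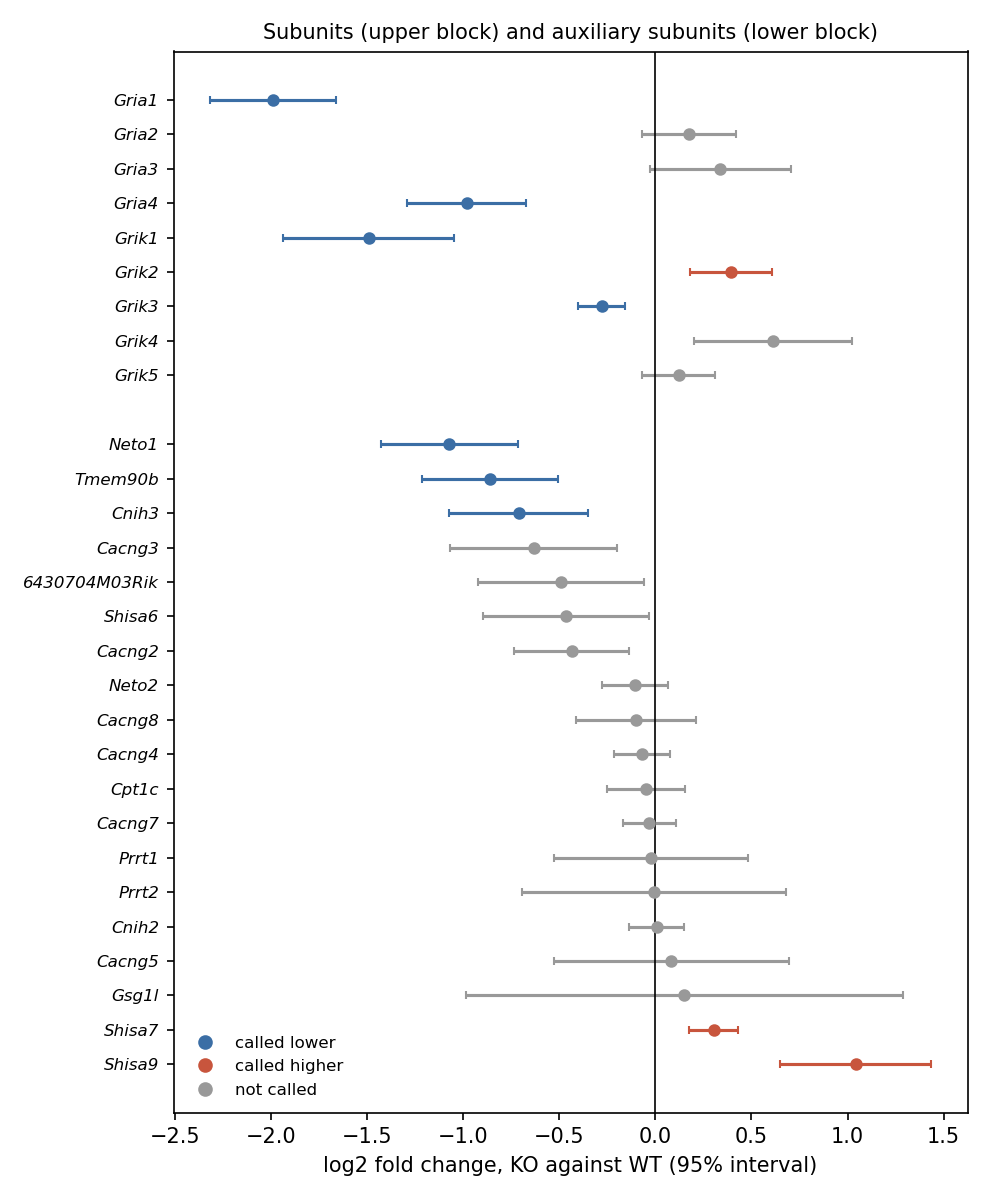
Log2 fold change, KO against WT, as points with 95% intervals from the edgeR fit, for the 9 subunits (upper block) and the 19 auxiliary genes tested (lower block), coloured where the adjusted p is under 0.05 and grey otherwise. Gria1 at -1.99 lies farthest to the left, and the intervals of Gria2, Gria3 and Grik5 cross 0.

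Scaffold, traffic and clustering proteins hold receptors at synapses. Of 25 listed, 22 were tested, with 1 higher, 2 lower and 19 not called (median log2 fold change 0.00). Among all genes tested, 3.64% were higher and 2.62% lower. Grip1, whose PDZ domains bind the tails of GluA2 and GluA3, fell from 125 ± 21.9 to 67.3 ± 3.62 CPM (-0.90 on the log2 scale with an SE of 0.113, edgeR adjusted p = 0.00124). The secreted noelins, which bind AMPA receptors from outside, differed in direction: Olfm1 was lower by a log2 value of -0.39 (edgeR adjusted p = 0.0355, called in 2 of 6 fits that left out a library) and Olfm2 higher by 0.39 (0.0162, called in 4 of 6). With the block the list had 2 higher and 4 lower, against 6.13% and 4.45% of all genes tested. Of the 3 genes of adenosine deaminases that act on RNA, 0 were called by edgeR and 0 by DESeq2, with 1 at an unadjusted p under 0.05 in edgeR and 1 called with the block. Adarb1, whose enzyme edits the GluA2 codon printed above, had a log2 fold change of -0.05 (edgeR adjusted p = 0.797), and Adarb2, a relative with no known editing activity, 0.34 (0.154, and 0.0231 with the block).

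Other glutamate receptor families were read from the same fit, in which 3.64% of all genes tested were called higher and 2.62% lower. Of 7 NMDA subunit genes 5 were tested, with 2 higher and 0 lower. Grin3a, an NMDA subunit that lowers calcium flow, rose by 0.60 (edgeR adjusted p = 0.00788), and Grin2b, the main early NMDA subunit, by 0.50 (0.0343, called in 1 of 6 fits that left out a library). The 7 metabotropic receptors included 2 higher and 2 lower (3 and 2 with the block, against 6.13% and 4.45% of all genes tested). Grm5, which couples to phospholipase C, fell by 1.37 (edgeR adjusted p = 0.000379) and Grm4, which lowers cyclic AMP, by 0.78 (0.0137, called in 3 of 6 fits that left out a library). Grm8, which also lowers cyclic AMP, rose by 1.17 (edgeR adjusted p = 0.0142, called in 5 of 6) on 17 to 54 counts per library. Calls in both directions were thus made among metabotropic as among kainate receptors. The 1 kainate subunit called higher without the block, Grik2, kept its call in 2 of 6 fits that left out a library.

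For each called subunit the genes whose 6 library values ran closest to its own were found among 11031 genes with a mean of at least 5 CPM, by the summed squared difference of centred log2 CPM. Among the nearest to Gria1 were the transcription factors Cux2 (0.0860) and Ets1 (0.146), with log2 fold changes of -1.82 and -1.88. Cux2 held 370, 265 and 416 CPM in WT and 96.8, 101 and 100 CPM in KO, so that WT K80 was highest and WT K79 lowest of the WT libraries, as for Gria1. Nearest to Gria4 were Grip1 (0.0270), which is in the scaffold list, Fam135b (0.0352) and 1810011O10Rik (0.0389). For Grik1 they were Grm5 (0.207), Dpp10 (0.2503) and Kctd4 (0.290), a looser likeness in a gene with fewer counts. The genes nearest to Grik2 (Pigy, Abca8b and Efha2) and to Grik3 (6030405A18Rik, Gmpr2 and 2410016O06Rik) were not themselves called. These are likenesses over 6 libraries that share the contrast, given as a description.

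Zeb2 is known to bind DNA at CACCT, often at pairs of such sites, so the promoters of called subunits were searched for it. RefSeq promoter windows (GRCm38.p6, 250 bases before the annotated start) were given for 6 of the 9 genes. The search covered CACCT and its reverse complement AGGTG, and the longer CACCTG with CAGGTG, which contains the shorter motif. Gria1, Gria3 and Grik1 had no entry. The windows of the 3 called genes with an entry are shown with each match in capitals, 5′ to 3′ on the gene's strand: Gria4 at chr9:4796235-4796484 (minus), Grik2 at chr10:49788755-49789004 (minus) and Grik3 at chr4:125490446-125490695 (plus).
Gria4: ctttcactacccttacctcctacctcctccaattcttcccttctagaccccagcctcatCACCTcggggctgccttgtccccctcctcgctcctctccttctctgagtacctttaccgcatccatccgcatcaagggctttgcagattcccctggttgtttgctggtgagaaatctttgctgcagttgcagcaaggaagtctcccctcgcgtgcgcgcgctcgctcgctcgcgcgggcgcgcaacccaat
Grik2: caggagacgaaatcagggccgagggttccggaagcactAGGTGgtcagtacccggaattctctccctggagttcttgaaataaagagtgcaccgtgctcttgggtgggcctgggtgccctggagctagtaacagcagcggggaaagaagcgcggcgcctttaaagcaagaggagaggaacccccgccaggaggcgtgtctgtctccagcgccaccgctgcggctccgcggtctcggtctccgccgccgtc
Grik3: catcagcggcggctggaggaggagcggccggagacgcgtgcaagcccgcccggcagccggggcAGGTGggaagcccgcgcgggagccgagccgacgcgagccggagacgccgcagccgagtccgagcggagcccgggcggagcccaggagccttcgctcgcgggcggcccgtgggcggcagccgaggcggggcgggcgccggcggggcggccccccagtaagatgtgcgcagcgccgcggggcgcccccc

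Gria4, Grik2 and Grik3 each had 1 match to CACCT on either strand, and the match in Grik3 was part of the longer CACCTG on the reverse strand. Gria2, Grik4 and Grik5, which were not called without the block, had none in this window. Among all 32851 promoter windows of the same length, 46% had at least 1 match to CACCT, 13.8% had 2 or more, and 17.2% had CACCTG. Single matches are thus common. The genes with a match were Grik2, called higher in KO, and Gria4 and Grik3, called lower. Binding of Zeb2 was not tested, and Gria1 and Grik1 had no window to search.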

How the data were processed

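There were 6 RNA libraries, 3 of each genotype, made from 100 ng of total RNA by poly-A selection and 15 PCR cycles and read in 36 cycles from 1 end, per the labels' protocols. TopHat 1.2.0, HTSeq 0.5.3p3, DESeq 1.2.2 and the build mm9 are named in the submitters' processing notes. Annotation and strand setting: not given in the sources used here.

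Whole read counts per gene, not normalized, were deposited by the authors, and the matrix table equalled the library files in all 36291 gene rows. Rows naming no gene were left out of library sizes (no feature 19.8 to 21.8% and ambiguous 1.94 to 1.99% of a library's counts). Per the file headers, the authors' deposited comparison table holds a ratio (the fold change), the log2 of that ratio, and raw and adjusted p-values. Other columns were not used. Its headers do not name the genotypes, and the ratio was taken to have KO on top since 777 of 777 calls shared with edgeR had the same sign.

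The members and gene lists were chosen with earlier results of these data known. Tests used edgeR 4.0.16 in R 4.3.3 with TMM scaling, filterByExpr at a minimum count of 10 and the quasi-likelihood test, with Benjamini-Hochberg adjustment at 0.05 over 13835 genes. SE is the log2 fold change over the square root of F. The common biological coefficient of variation was 9.26%. Shares and ratios were compared by two-sided exact permutation over 6 libraries, and within K numbers by exact sign flips of the 3 differences. Named were the 9 subunits, Zeb2, up to 4 called genes of each list by lowest p (2 where none was called), and 3 nearest genes for each called subunit, apart from a few genes that are not reported here. Libraries of a K number deviated together (correlation across genes 0.256, 0.197 and 0.175 for K77, K79 and K80), so the number was taken to pair them, and blocked values or counts are given where they change a call among the subunits or in a list's count. Exonic lengths and pore windows came from GENCODE in GRCm38. The fits were tested on simulated data. Alternatives were RLE and upper quartile scaling, DESeq2 1.42.0, limma voom 3.58.1, no filter, 1 CPM in 3 libraries, the block, erythroid and mitochondrial rows dropped, and each library left out. Depth was 8323531 to 11069437 gene counts per library.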

Additional observations from a re-analysis of the deposited data

How the results depend on the processing

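No subunit's fold change reversed in any of the 14 alternatives to the edgeR fit, and Gria1, Gria4 and Grik1 were called lower in all 14. With the K number as a replicate block, 3 subunits were called higher (1 without), 1463 of all genes (867 without), and 6 scaffold genes and 1 editing gene (3 and 0 without); it changed no other call among the 9 subunits than those of Gria3 and Grik4. Blocked mean differences of shares and ratios must equal the unblocked ones, with 1 library of each genotype per K number, so they are no check. The exact p for the Gria1 share was 0.1 by unpaired permutation and 0.25 by sign flips within K numbers. With no filter, 2 subunits were called higher (Grik4 being added, adjusted p = 0.0462), with 8 auxiliary genes, 6 scaffold genes and 1 editing gene. DESeq2 called 5 scaffold genes. Leaving out 1 library gave 0 to 1 subunits higher and 3 to 4 lower, 445 (without KO K80) to 1044 (without WT K79) genes in all, 3 to 7 auxiliary, 1 to 3 scaffold, 1 to 2 NMDA and 2 to 4 metabotropic receptor genes. Per kb of exonic length, the difference in share was 19.1 points for Gria2, 2.22 for Gria4 (against -3.51 by CPM) and 3.37 for Grik2. These lengths take in every annotated exon. Where a cause is not given, the cause was not tested. Of the 9 subunits Grik4 had the fewest counts per library (51 to 128), which limits its precision.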
